A study of Rattus norvegicus with 12 samples.

Results

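The molecular clock of the liver was examined through 10 genes in livers of obese ZSF1 rats, 6 females and 6 males. The members were chosen by symbol among 16478 gene rows, and all 10 had a row and passed the filter on low counts. They are the activators Arntl (now named Bmal1), Clock and Npas2, the repressors Nr1d1, Per1, Per2, Per3 and Cry1, and the outputs Dbp and Tef. All animals were adults aged 16 weeks, received no treatment and were fed chow freely under a 12 h day and night cycle. Females and males alike are obese because neither copy of their leptin receptor gene works, and no lean animals were analysed here. One library was made from the total RNA of each liver. The labels do not give the hour at which livers were collected, and males carry the numbers 1 to 6 and females the numbers 7 to 13, so sex and collection time or order cannot be told apart.

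The mammalian clock is a feedback loop of transcription. ARNTL pairs with CLOCK or with its relative NPAS2, binds E-boxes and drives the Per, Cry and Nr1d1 genes, and PER and CRY proteins return to the nucleus and block that pair. NR1D1, also called REV-ERB alpha, represses Arntl and Npas2 through ROR elements (ROREs), while DBP and TEF, which are PAR bZIP factors, bind D-boxes in output genes. In rodent liver Arntl and Npas2 therefore peak at about the opposite phase of the day to Nr1d1 and Dbp, and feeding times can shift the liver clock.

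These elements can be read in the RefSeq sequence before the members' start sites, of the rat build GRCr8, which differs from the build used for counting. Windows of 250 bases were given for 9 members, 11 windows in all (Clock and Nr1d1 have 2 start sites each). The windows below are shown because they hold a clock motif, with Dbp, the member with the largest difference between the sexes, shown beside them. Each runs 5′ to 3′ toward the start site, and capitals mark matches to CACGTG (E-box), CACGTT (E′-box), TTATGTAA (D-box), AGGTCA (the core of a RORE) and AAAGTAGGTNA (RORE) on either strand.
Arntl, chr1:176766078-176766327, plus strand: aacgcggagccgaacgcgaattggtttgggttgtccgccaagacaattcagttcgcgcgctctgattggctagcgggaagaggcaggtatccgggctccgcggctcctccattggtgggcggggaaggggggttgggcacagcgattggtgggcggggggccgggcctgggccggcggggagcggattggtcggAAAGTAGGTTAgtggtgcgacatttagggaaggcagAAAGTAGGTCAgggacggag
Nr1d1, first start site, chr10:84231813-84232062, minus strand: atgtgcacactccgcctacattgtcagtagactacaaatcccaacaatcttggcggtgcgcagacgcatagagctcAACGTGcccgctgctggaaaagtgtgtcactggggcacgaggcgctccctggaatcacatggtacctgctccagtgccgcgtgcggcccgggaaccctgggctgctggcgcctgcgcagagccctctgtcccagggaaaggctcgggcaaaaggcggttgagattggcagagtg
Nr1d1, second start site, chr10:84229455-84229704, minus strand: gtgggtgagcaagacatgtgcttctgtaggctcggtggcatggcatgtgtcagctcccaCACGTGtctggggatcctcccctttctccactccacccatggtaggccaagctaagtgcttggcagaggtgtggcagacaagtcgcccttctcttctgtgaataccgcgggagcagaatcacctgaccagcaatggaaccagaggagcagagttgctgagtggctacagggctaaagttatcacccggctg
Per2, chr9:99496994-99497243, minus strand: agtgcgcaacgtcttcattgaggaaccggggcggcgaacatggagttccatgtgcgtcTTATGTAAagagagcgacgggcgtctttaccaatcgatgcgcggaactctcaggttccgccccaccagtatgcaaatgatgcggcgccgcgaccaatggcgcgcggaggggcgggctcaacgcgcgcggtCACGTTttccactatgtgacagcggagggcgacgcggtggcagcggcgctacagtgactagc
Tef, chr7:115206577-115206826, plus strand: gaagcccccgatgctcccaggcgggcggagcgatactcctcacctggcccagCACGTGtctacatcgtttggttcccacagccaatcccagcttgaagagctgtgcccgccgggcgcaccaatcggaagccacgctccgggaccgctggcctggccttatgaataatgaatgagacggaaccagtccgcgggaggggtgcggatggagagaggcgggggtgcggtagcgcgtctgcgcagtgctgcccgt
Dbp, chr1:105312006-105312255, plus strand: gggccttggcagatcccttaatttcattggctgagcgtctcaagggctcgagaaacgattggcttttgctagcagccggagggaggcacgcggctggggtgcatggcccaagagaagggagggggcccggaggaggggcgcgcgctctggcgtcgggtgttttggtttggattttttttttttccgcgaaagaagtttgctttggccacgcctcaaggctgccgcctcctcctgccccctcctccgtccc
In the Arntl window, 2 matches to the RORE began 56 and 20 bases before the start site, and the second contains the core. Only 12 of 33469 RefSeq windows (0.0359%) held that RORE, whose letters are those shared by both Arntl copies and so were chosen from that window, and 14.1% held the core. The E-box stood in the second Nr1d1 window and in the Tef window (5.59% of all windows), and the E′-box in the first Nr1d1 window and in the Per2 window (4.07%). The D-box stood in the Per2 window (0.828% of all windows). The Dbp, Per3, Per1, Npas2 and both Clock windows held none of these letters. A match is a description of letters, and binding was not measured.

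Libraries held 6763879 to 24837602 counts over genes in females and 11381428 to 29232871 in males, and each member had at least 16 counts in every library. Hepatocyte markers dominated, with 5 listed genes that had a row, led by Alb. They summed to 222900 to 299800 CPM (counts scaled to a common library total) in females and 178700 to 240200 in males. Of these 5, edgeR called Alb higher in females and Ttr higher in males, against 20.5% and 22.7% of all tested genes. Male 4 had the highest sum of acute phase genes (55470 CPM) and female 12 the highest female level of Pck1 (1743 CPM), so the calls below were repeated without both, and the same 7 members were called. Levels are CPM scaled by TMM factors. Fold changes are females over males from edgeR's quasi-likelihood test on all genes, and a gene is called when its Benjamini-Hochberg adjusted p over 9943 tested genes is under 0.05. CPM is not divided by transcript length, so levels are compared between animals, not between genes. In whole liver, fewer cells of a type and less RNA per cell cannot be told apart.

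The clock genes differed between the sexes in opposite directions by role. All 3 activators were higher in females, both outputs and the repressors Nr1d1 and Per3 were higher in males, and Per1, Per2 and Cry1 were not called. In all, 7 of 10 members were called (70.0%), against 43.2% of all tested genes, with 3 higher in females (20.5% of all genes were) and 4 higher in males (22.7%). The difference was called and at least 2-fold for 5 of 10, against 5.75% of all genes. The sexes did not overlap for 5 of 10 members, against 22.8% of all genes, with 2 higher in females (10.1% of all genes) and 3 higher in males (12.8%). The median log2 fold change was 0.92 for the activators, -0.21 for the repressors and -2.07 for the outputs, against -0.013 over all tested genes.

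**Figure D1:**
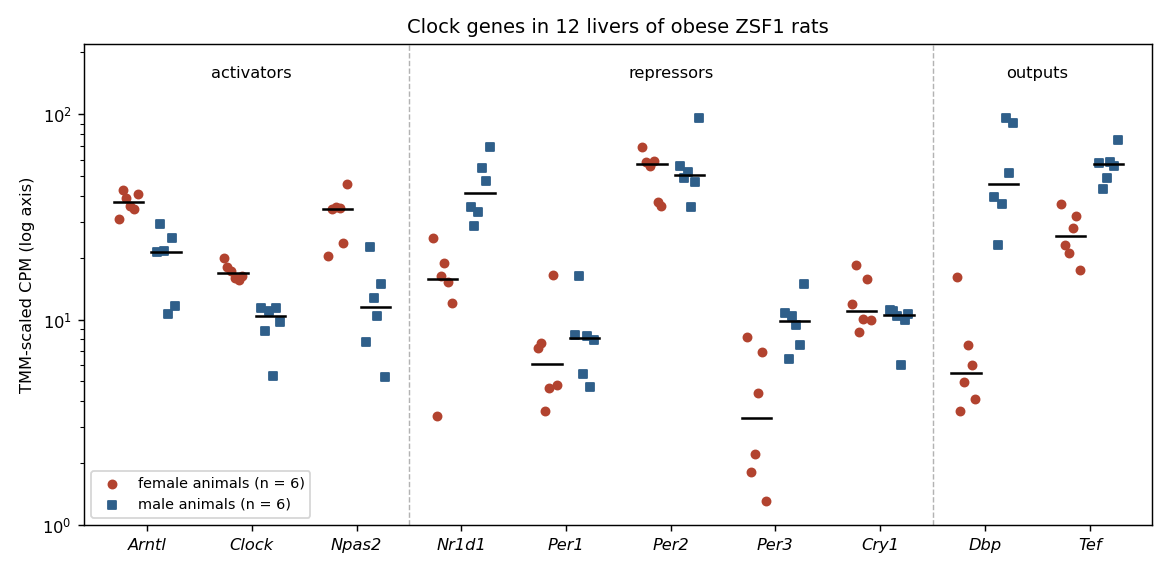
TMM-scaled CPM (log axis) of the 10 clock genes in each of 6 females (circles) and 6 males (squares), with black lines at the medians. Female Arntl and Clock values lie above every male value, and female Nr1d1, Dbp and Tef values below every male value; heights of different genes are not comparable, since transcript length is not divided out.

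Among the activators, Arntl, the shared partner of the loop, had 31.0, 37.4 and 42.6 CPM in females (lowest, median and highest), against 10.6, 21.4 and 29.1 CPM in males. Every female exceeded every male. The means were 37.3 ± 4.32 CPM in females and 19.9 ± 7.35 CPM in males (SD, n = 6 each), a 1.89-fold difference (log2 0.92, SE 0.223, edgeR adjusted p = 0.00535). Clock, the histone acetyltransferase partner of ARNTL, had 15.6, 16.9 and 19.9 CPM in females, against 5.32, 10.4 and 11.4 CPM in males. The sexes did not overlap here either, and the fitted difference was 1.79-fold (log2 0.84, SE 0.148, edgeR adjusted p = 0.000417). Npas2, which can stand in for CLOCK, had 20.4, 34.7 and 45.7 CPM in females, against 5.25, 11.6 and 22.6 CPM in males. One male, male 2, lay within the female range. Npas2 differed most of the activators, at 2.67-fold (log2 1.41, SE 0.315, edgeR adjusted p = 0.00346).

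The repressors split. Nr1d1, the nuclear receptor that represses Arntl, had 3.40, 15.8 and 25.0 CPM in females, against 28.5, 41.4 and 68.9 CPM in males. The ranges did not overlap, and Nr1d1 was 3.005-fold higher in males (log2 -1.59, SE 0.372, edgeR adjusted p = 0.00497). Per3, the period gene held to be least needed for the rhythm itself in mice, had 1.31, 3.30 and 8.20 CPM in females, against 6.40, 9.89 and 14.95 CPM in males. The ranges overlapped, with all 6 females under the male median, and Per3 was 2.47-fold higher in males (log2 -1.31, SE 0.405, edgeR adjusted p = 0.0205).

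The other repressors carried no call. Per1, a period gene that also answers to glucocorticoid and to acute signals, had 3.60, 6.05 and 16.5 CPM in females and 4.71, 8.13 and 16.3 CPM in males (log2 -0.21, SE 0.386, edgeR adjusted p = 0.70). One animal of each sex, female 12 and male 2, held about the same high value. Per2, the period gene whose loss shortens and then stops the rhythm in mice, had 35.7, 57.0 and 69.6 CPM in females and 35.3, 50.7 and 96.4 CPM in males (log2 -0.10, SE 0.237, edgeR adjusted p = 0.773). The sign of Per1 turned without male 2 (log2 0.09), and that of Per2 without male 6 (0.14) or female 13 (0.007). Cry1, the cryptochrome that represses most strongly, had 8.73, 10.99 and 18.4 CPM in females and 6.04, 10.5 and 11.1 CPM in males (log2 0.34, SE 0.191, edgeR adjusted p = 0.163). These 3 estimates had SEs of 0.191 to 0.386, and a missed call does not show equal levels.

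Both outputs were lower in females, and Dbp differed more than any other member. Dbp, the D-box binding factor, had 3.58, 5.50 and 16.2 CPM in females, against 23.1, 45.6 and 95.5 CPM in males. No female reached the lowest male. The means were 7.07 ± 4.69 CPM in females and 56.1 ± 29.9 CPM in males (SD, n = 6 each), an 8.21-fold higher level in males (log2 -3.04, SE 0.458, edgeR adjusted p = 0.000290). Tef, the thyrotroph embryonic factor of the same family, had 17.5, 25.5 and 36.6 CPM in females, against 43.1, 57.2 and 75.1 CPM in males. The ranges did not overlap, and Tef was 2.16-fold higher in males (log2 -1.11, SE 0.174, edgeR adjusted p = 0.000237). Dbp and Tef, like Nr1d1, are genes driven by ARNTL and its partners.

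**Figure D2:**
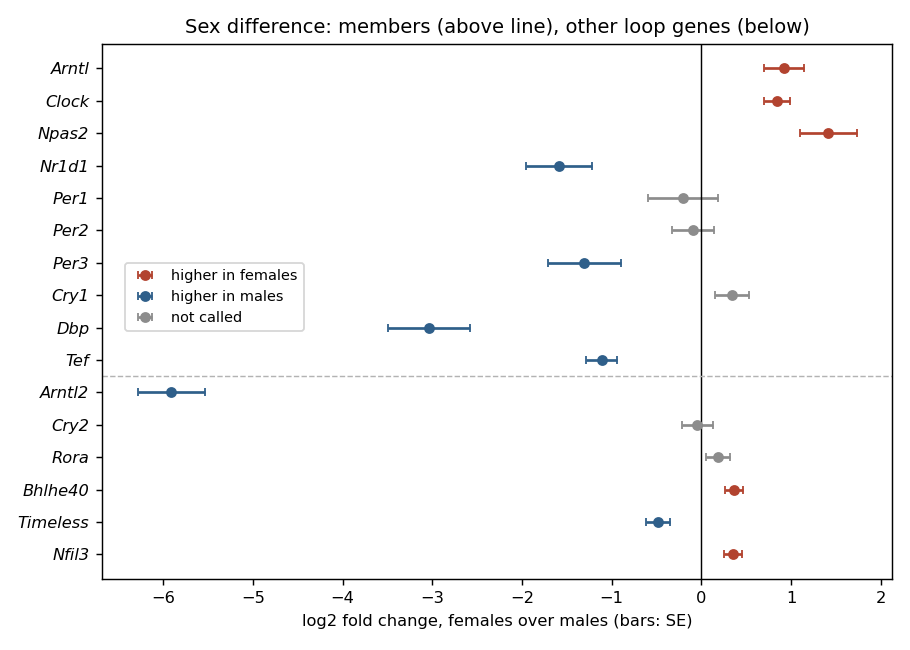
Fitted log2 fold change, females over males, with SE bars, of the 10 members (above the dashed line) and of 6 other genes of the loop (below it), coloured by call at adjusted p under 0.05. The 3 activators lie right of 0, Nr1d1, Per3, Dbp and Tef left of it, and Arntl2 farthest left at -5.91.

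Of 12 other genes of the loop, 7 had a row and 6 were tested. The test called 2 higher in females and 2 higher in males, against 20.5% and 22.7% of all tested genes, with a median log2 fold change of 0.07. Arntl2, a paralogue of Arntl that is scarce in most tissues, had 6 counts in all females together and 434 in all males. The ratio of summed counts was 64.0-fold higher in males (exact 95% binomial interval 29.2 to 175, counting error only). It had at most 0.139 CPM in any female and at least 2.28 CPM in any male (edgeR adjusted p = 2.34e-08), the direction opposite to Arntl. Bhlhe40, a repressor that competes for E-boxes, was 1.28-fold higher in females (105 ± 11.5 CPM, against 81.5 ± 12.6 CPM in males, adjusted p = 0.0104). Nfil3, which binds D-boxes and opposes DBP and TEF, was 1.27-fold higher in females (66.3 ± 6.03 CPM, against 52.2 ± 8.23 CPM in males, adjusted p = 0.0112). Timeless, mainly a replication fork gene in mammals, was 1.39-fold higher in males (5.001 ± 0.911 CPM in females, against 6.91 ± 1.04 CPM in males, adjusted p = 0.00875). Cry2, the second cryptochrome, stood at 14.1 ± 1.98 CPM in females and 14.4 ± 4.50 CPM in males (adjusted p = 0.852). Rora, which activates Arntl through ROREs, stood at 4.76 ± 0.818 CPM in females and 4.21 ± 0.592 CPM in males (adjusted p = 0.275). Ciart, a repressor of the loop, was too low to test, with 17 counts in females and 102 in males. Nr1d2, Rorb, Bhlhe41 and Hlf were not analysed here.

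Of 16 tested genes for the kinases and the turnover of clock proteins, 4 were called toward females, 2 were called toward males and 10 were not called. This share lies under the 43.2% called among all tested genes (20.5% toward females and 22.7% toward males). The list had a median log2 fold change of -0.005. Btrc, a ubiquitin ligase subunit for PER proteins, was 1.502-fold higher in females (12.3 ± 1.25 CPM, against 8.17 ± 0.793 CPM in males, adjusted p = 0.000140). Csnk2a1, the casein kinase 2 alpha subunit, was 1.48-fold higher in females (adjusted p = 0.000809), and Csnk1a1, casein kinase 1 alpha, 1.41-fold (adjusted p = 0.000163). Usp2, a rhythmic deubiquitinase gene, was 1.53-fold higher in males (6.23 ± 2.31 CPM in females, against 9.45 ± 2.26 CPM in males). Leaving out female 9, 10 or 13, or male 1, 2, 3, 4 or 6, ended its edgeR call (adjusted p = 0.0451). With all animals kept, the call also ended with upper quartile scaling, library totals or no filter (edgeR adjusted p = 0.0532, 0.0648 and 0.0610). Csnk1d, the casein kinase 1 delta gene that times PER turnover, was not called (73.4 ± 3.66 CPM in females and 76.1 ± 4.25 CPM in males, adjusted p = 0.477).

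Of 14 tested liver genes known from rodents to follow the clock or the PAR bZIP factors, 1 was called toward females, 5 were called toward males and 8 were not called. All tested genes were called at 43.2%, a share close to that of this list, with 20.5% toward females and 22.7% toward males. The list had a median log2 fold change of -0.32. Nr1i3, the constitutive androstane receptor and a gene driven by DBP, TEF and HLF in mice, was 7.05-fold higher in males (2.92 ± 0.519 CPM in females, against 20.4 ± 4.32 CPM in males, adjusted p = 1.19e-08). Nr0b2, the bile acid responsive repressor SHP, was 2.79-fold higher in males (12.7 ± 4.61 CPM in females, against 36.0 ± 16.4 CPM in males, adjusted p = 0.00770), and Gys2, liver glycogen synthase, 1.55-fold (adjusted p = 1.38e-05). Noct, the deadenylase-like nocturnin gene, was 2.08-fold higher in females (14.9 ± 4.39 CPM, against 6.90 ± 4.31 CPM in males). Leaving out female 7, 8, 9 or 12, or any male from 1 to 5, ended its edgeR call (adjusted p = 0.0442). The call also ended without the filter on low counts, with all animals kept (edgeR adjusted p = 0.0806). Nampt, the NAD salvage enzyme gene with E-boxes, had 100.4 ± 15.9 CPM in females and 123 ± 19.1 CPM in males (adjusted p = 0.0519). Leaving out female 7 or 12, or male 4 or 5, gave a call toward males, at an edgeR adjusted p between 0.0196 and 0.0349. Elovl3 had no count in any library, and Alas1 was not analysed here.

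Within each sex, animals differed in clock transcripts more than in most genes of similar level. The SD of log2 CPM among the 6 animals of a sex was set against the 200 tested genes nearest in mean level over both sexes together. A member that differs between the sexes thus lies off its neighbours' level within a sex. In females the members' SDs ran from 0.127 to 1.04, and 9 of 10 lay above the median of their neighbours. Clock was the exception, with an SD of 0.127 against a neighbour median of 0.153. In males the SDs ran from 0.269 to 0.793, and each member exceeded at least 85.0% of its neighbours. For Clock the male SD includes male 4, at log2 CPM 2.44, with the other males between 3.16 and 3.53. For Cry1 it includes male 4 at 2.62, with the other males between 3.34 and 3.49. The place of Clock and Cry1 among their neighbours may thus rest on that animal. Dbp had an SD of 0.772 in females and 0.793 in males, against neighbour medians of 0.131 and 0.159. The activators spread less in females than in males (Arntl 0.170 and 0.596, Clock 0.127 and 0.418, Npas2 0.426 and 0.726), and Nr1d1 and Per3 spread more in females (0.994 and 1.04, against 0.484 and 0.422 in males). For Nr1d1 the female SD includes female 8, at log2 CPM 1.81, with the other females between 3.61 and 4.65. The male SD of Clock includes male 4, as given above. SDs without these animals were not computed, so the differences for Nr1d1 and Clock may rest on them. These spreads are descriptions, and the differences in spread between the sexes were not tested.

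**Figure D3:**
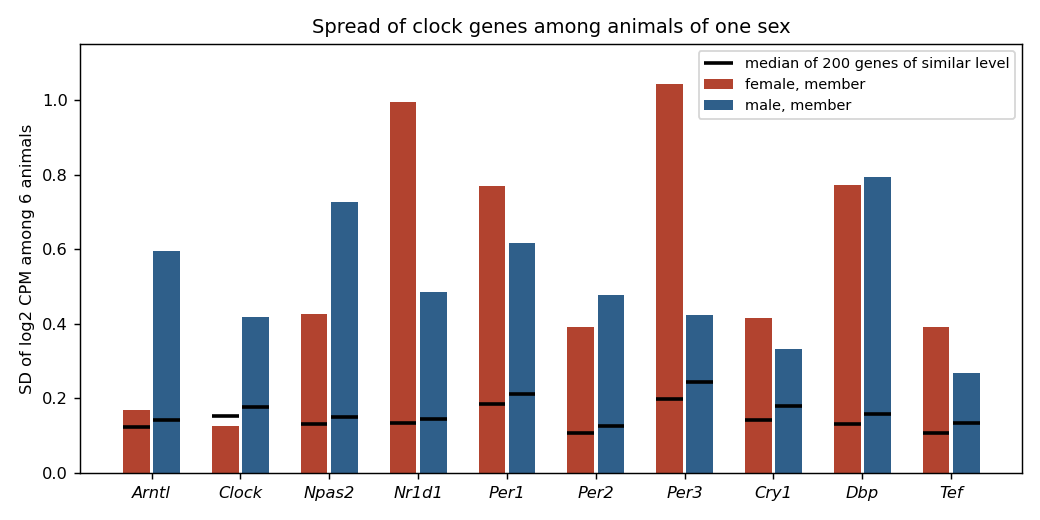
SD of log2 CPM among 6 females (left bars) and 6 males (right bars) for each member, with black lines at the median SD, in the same sex, of 200 genes. These are the genes nearest in mean log2 CPM over both sexes together. All bars except that of Clock in females rise above their line.

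The spread had a shared pattern, which was measured by correlating each animal's deviation from its own sex mean on the log2 CPM scale. Over 12 animals, 10 of 45 pairs of members passed at adjusted p under 0.05 by 100000 permutations of animals within sexes. The count was 17 without male 4 and female 12 together, 7 with library totals in place of TMM and 11 by Spearman's rho. Among the 10 pairs, all 6 negative pairs joined Arntl or Npas2 with Nr1d1, Per3, Dbp or Tef, and all 4 positive pairs joined Nr1d1, Per3, Dbp or Tef with each other. Clock, Per1, Per2 and Cry1 were in none of the 10 pairs. The 2 values of each point come from 1 library and share its depth and RNA quality. All 10 pairs had the same sign in both sexes. They were picked on both sexes together, which favours such agreement, so it is not separate support.

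Arntl and Dbp moved against each other, with r = -0.82 (permutation p = 0.00042, adjusted 0.00472) and rho = -0.78 (permutation p = 0.00173, adjusted 0.0130). Within females r was -0.94 (exact permutation p = 0.00417) and within males -0.92 (exact permutation p = 0.0125), n = 6 each. Among females, female 7 had the least Arntl and the most Dbp (31.0 and 16.2 CPM), and female 8 the most Arntl and the least Dbp (42.6 and 3.58 CPM). Among males, male 4 had the least Arntl and the most Dbp (10.6 and 95.5 CPM), and male 2 the most Arntl and the least Dbp (29.1 and 23.1 CPM). Without males 4 and 6, the animals farthest from the median of Arntl, r was -0.79. The ratio of Dbp to Arntl thus ran from 0.0840 in female 8 to 0.522 in female 7, and from 0.792 in male 2 to 9.02 in male 4. This ratio cannot overlap between the sexes, since every female had more Arntl and less Dbp than every male.

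Npas2 and Tef formed the strongest opposed pair, with r = -0.84 (permutation p = 0.00015, adjusted 0.00337) and rho = -0.86 (permutation p = 0.00017, adjusted 0.00382), and r was -0.80 without males 2 and 6. Within females r was -0.94 (exact permutation p = 0.00417) and within males -0.92 (exact permutation p = 0.0194). Per3 and Tef were the most alike pair, with r = 0.92 (permutation p = 0.00032, adjusted 0.00472) and rho = 0.90 (permutation p = 0.00123, adjusted 0.0119), and r was 0.84 without females 7 and 13. Nr1d1 and Dbp had r = 0.76 (permutation p = 0.00799, adjusted 0.0360) and rho = 0.92 (permutation p = 7e-05, adjusted 0.00315), and r was 0.93 without female 8 and male 2. The outputs Dbp and Tef had r = 0.81 (permutation p = 0.0015, adjusted 0.0135) and rho = 0.82 (permutation p = 0.00225, adjusted 0.0141), and r was 0.81 without female 7 and male 4. The other called pairs were Npas2 with Per3 (r = -0.74) and Arntl with Tef (-0.61), Nr1d1 (-0.54) and Per3 (-0.49), and Per3 with Dbp (0.70), with permutation p adjusted over 45 pairs from 0.00315 to 0.0293. Their rho values were -0.755, -0.699, -0.825, -0.573 and 0.72, with permutation p adjusted from 0.0119 to 0.0478. With library totals in place of TMM, Arntl with Per3, Arntl with Tef and Nr1d1 with Dbp missed the threshold (permutation p adjusted to 0.0728, 0.0778 and 0.0501). Without the 2 farthest animals the r values of these 5 pairs were -0.80, -0.77, -0.59, -0.83 and 0.56.

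No pair of activators passed after adjustment. Arntl and Npas2 had r = 0.72 (permutation p = 0.0323, adjusted 0.121) and rho = 0.73 (permutation p = 0.0157, adjusted 0.0590), which missed the threshold, and r was 0.88 without males 4 and 6. Clock and Npas2 had r = -0.09 (permutation p = 0.815, adjusted 0.853) and rho = -0.09 (permutation p = 0.801, adjusted 0.858), and r was -0.23 without males 1 and 4. Arntl and Clock had r = 0.55 (permutation p = 0.186, adjusted 0.372) and rho = 0.46 (permutation p = 0.183, adjusted 0.381), and r turned to -0.56 without males 4 and 6, so that value rests on those animals. Within 1 sex alone, 0 of 45 pairs passed after adjustment. An exact p over 720 orders cannot be under 1 in 720, so no single pair could pass adjustment over 45 pairs by itself. At an unadjusted exact p under 0.05 there were 10 pairs in females and 7 in males. The smallest adjusted exact permutation p was 0.0625 in females and 0.141 in males.

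**Figure D4:**
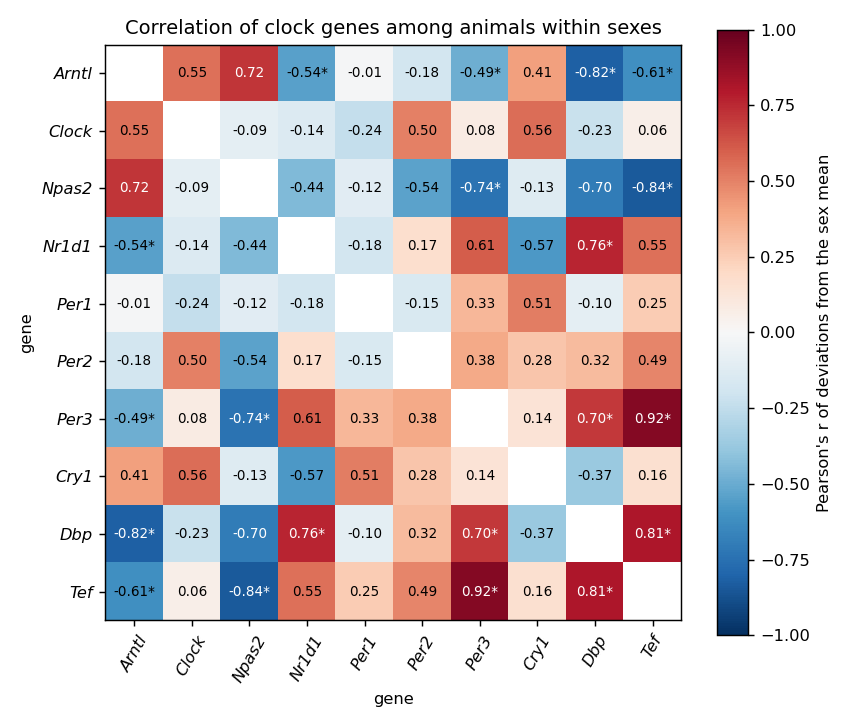
Pearson's r between members over 12 animals, from log2 CPM deviations from the sex mean, with asterisks at adjusted permutation p under 0.05. Nr1d1, Per3, Dbp and Tef form a block of positive values, and the same genes are negative with Arntl and Npas2.

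**Figure D5:**
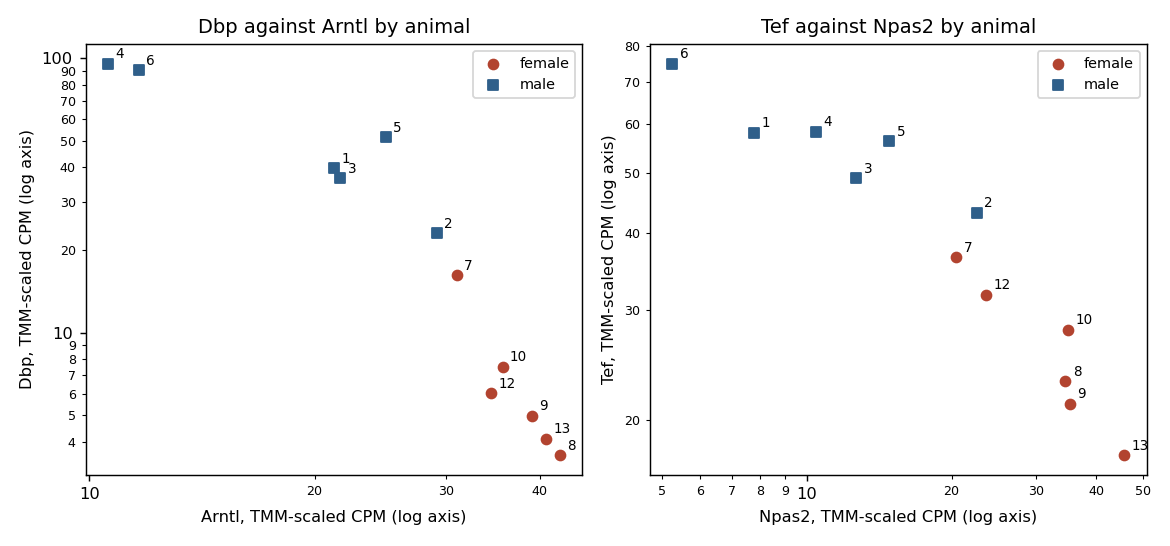
Dbp against Arntl and Tef against Npas2, TMM-scaled CPM on log axes, with each point 1 animal labelled by its number (circles, females; squares, males). In both panels the output falls as the activator rises within each sex, and the females lie at the low end of the output axis.

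The genes most like Arntl and Dbp in these deviations were looked up among 7536 other tested genes with at least 5 CPM on average, as a description with no test. Dbp was matched most closely by Lpin2, a phosphatidate phosphatase gene (r = 0.91, rho = 0.87). Next came the zinc finger gene Klf16 (r = 0.84), the D-aspartate oxidase gene Ddo (0.83), Pter (0.82) and Adrbk1, a receptor kinase gene (0.82). The genes most opposed to Dbp were Slc45a3, a transporter family gene (r = -0.92), and then Park7 (-0.91), RGD1310507 (-0.89), Mcfd2 (-0.87) and Rnf8 (-0.85). Arntl was matched most closely by Chmp1b, a membrane remodelling gene (r = 0.92), Rdx, the radixin gene (0.92), Cept1 (0.91), Tmtc3 (0.88) and Zfp347 (0.88). It was most opposed by Epn1, the epsin 1 gene (r = -0.92), Tnfrsf1a, a TNF receptor gene (-0.91), Efhd2 (-0.87), Cldn3 (-0.86) and Ppp1r16a (-0.86). In females alone r with Arntl was -0.065 for Zfp347, 0.42 for Cept1 and -0.088 for Cldn3, against 0.94, 0.94 and -0.93 in males. The other genes named for Arntl had r of at least 0.80 (Rdx) or at most -0.69 (Epn1) in females. Sex differences among these genes ran both ways: Lpin2, Klf16 and Pter, which resembled Dbp, were higher in males by edgeR, but so were Park7, which opposed Dbp, and Chmp1b, which resembled Arntl. These are the extremes of a search over 12 animals, so their r values are high by selection.

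Genes that answer to cues of the clock were measured beside it. The 7 feeding responsive genes split, with 2 called toward females and 2 toward males by edgeR and by limma-voom. DESeq2 called 2 toward females and 3 toward males. Among all tested genes edgeR called 20.5% toward females and 22.7% toward males. Pdk4, a fasting-induced kinase gene, stood at 84.7 ± 12.5 CPM in females and 49.2 ± 13.6 CPM in males (1.73-fold, edgeR adjusted p = 0.00410). Pck1, the gluconeogenic carboxykinase gene, stood at 635 ± 557 CPM in females and 2370 ± 352 CPM in males (3.73-fold higher in males, adjusted p = 0.00408), a log2 fold change of -1.90, or -2.52 without female 12. Irs2, which encodes an insulin receptor substrate, exceeded its female level 1.84-fold in males (adjusted p = 0.0286), a call that ended when female 8, 9 or 10, or male 2, 3 or 4, was left out. Of 8 glucocorticoid responsive genes, 2 were higher in males by edgeR, near the 22.7% of all tested genes, and 6 were not called. DESeq2 called 3 toward males, and limma-voom called 2 toward males and 1 toward females. Fkbp5, a chaperone gene that glucocorticoid induces, was 1.69-fold higher in males (11.4 ± 1.75 CPM in females, against 19.1 ± 2.66 CPM in males, edgeR adjusted p = 0.000112). Klf9 was 1.22-fold higher in males (edgeR adjusted p = 0.0368). The Klf9 call ended when female 7, 8, 9 or 13, or any male from 1 to 4, was left out. It also ended with upper quartile scaling of all animals (edgeR adjusted p = 0.0543). Of 8 temperature responsive genes, edgeR and limma-voom called 0 and DESeq2 called 1, and 2 had an unadjusted p under 0.05 with each tool. The part of these cues in the clock differences was not tested.

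Markers of other cells were counted beside shares of 20.5% higher in females and 22.7% higher in males over all tested genes. Kupffer cell markers gave 2 of 5 higher in females, with summed levels of 105 to 159 CPM in females and 62.4 to 194 CPM in males. Endothelial markers gave 1 of 2 higher in females (40.5 to 52.8 CPM in females, 20.2 to 44.6 CPM in males), and stellate cell markers 1 of 5 in each direction (53.1 to 75.8 CPM in females, 47.0 to 81.8 CPM in males). Bile duct markers gave 0 of 2 calls by edgeR, DESeq2 and limma-voom, and 0 at an unadjusted p under 0.05 (4.59 to 9.69 CPM in females, 5.08 to 12.5 CPM in males), and leukocyte markers 1 of 3 higher in males by edgeR and 0 by DESeq2 and limma-voom (9.58 to 14.4 CPM in females, 7.53 to 49.3 CPM in males). The 3 adipocyte markers summed to at most 0.0752 CPM in any female and 0.0873 CPM in any male, and Lep was at 0 throughout. Acute phase genes gave 4 of 6 higher in males by edgeR and 3 by DESeq2 (14240 to 16750 CPM in females, 21250 to 55470 CPM in males, the highest in male 4). Their part in the clock differences was not tested, and without male 4 and female 12 together the same 7 members were called, with Dbp at log2 -2.80 and Arntl at 0.83.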

How the data were processed

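RNA-seq was made from livers of obese ZSF1 rats, 6 of them female and 6 male by the labels, with TruSeq libraries of total RNA per the labels' protocols. The deposited values are raw counts per gene and library. The submitters' processing notes name Bowtie2 2.0.2, DESeq and the build rn4, and the counter and its strand setting are not given in the sources used here. In each library, 27.1% to 31.7% of counts stood in 5 rows that name no gene, and these were left out. Over 30 within-sex pairs of libraries, chi-square per degree of freedom was at least 6.34, so all 12 were kept as separate samples. Nothing says that animals were bred or sampled apart, so p-values measure the spread between these samples.

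Genes were filtered with filterByExpr (at least 10 counts scaled to the median library and 15 in total), scaled by TMM and tested with edgeR 4.0.16 (R 4.3.3), with Benjamini-Hochberg adjustment over 9943 genes. Alternatives used RLE, upper quartile and library total scaling, DESeq2 1.42.0, limma-voom (limma 3.58.1), other filters and fewer libraries. A floor of 3 counts is 0.103 to 0.444 CPM, and intervals and floors cover counting error only. Correlations used log2 CPM with a prior count of 2, and 2-sided permutation tests in scipy 1.17.1 or numpy 2.4.6. The code was tested on simulated counts.

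The members and lists were chosen with earlier results of these data known. Text names all members, every other loop gene, up to 4 called genes with the largest change and the most abundant uncalled gene of each other clock list, and the 5 genes most like and most opposed to Arntl and to Dbp. Of the cue lists, the called feeding and glucocorticoid genes were named once their values were known. Some listed genes are not reported here by name. Promoters are from RefSeq GRCr8 and 15931 of 16478 symbols matched its gene table.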

Additional observations from a re-analysis of the deposited data

Results flagged for a closer look

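A value far from the others of its sex was looked for in 64 groups of 6 animals, by the gap to the nearest animal over the whole range (past Dixon's 95% limit for 6 samples). Chance gives such a value in about 1 in 20 groups. Per1 stood at 16.5 CPM in female 12, with the other females between 3.60 and 7.70 CPM, and at 16.3 CPM in male 2, with the other males between 4.71 and 8.39 CPM. Dbp stood at 16.2 CPM in female 7, with the other females between 3.58 and 7.51 CPM. Per2 stood at 96.4 CPM in male 6, with the other males between 35.3 and 56.3 CPM. Cry1 stood at 6.04 CPM in male 4, with the other males between 9.99 and 11.1 CPM. Timeless stood at 8.95 CPM in male 4, with the other males between 6.12 and 6.89 CPM. Pck1 stood at 1743 CPM in female 12, with the other females between 257 and 582 CPM.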

How the results depend on the processing

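Over 20 alternatives the 10 members gave 200 values, and 197 kept their direction and their side of the threshold, with 7 members called in each. The other 3 turned sign in genes that were not called, namely Per1 without male 2 (log2 0.087), and Per2 without female 13 (0.007) or male 6 (0.14). Cry2, also not called, turned without female 13 (0.005) or male 6 (0.13), within a range of -0.14 to 0.13 over the animals left out. With 1 animal left out at a time, the log2 fold change ran from 0.80 to 1.07 for Arntl, 0.73 to 0.90 for Clock, 1.24 to 1.69 for Npas2, -1.78 to -1.37 for Nr1d1, -0.61 to 0.087 for Per1, -0.19 to 0.14 for Per2, -1.58 to -1.08 for Per3, 0.19 to 0.42 for Cry1, -3.42 to -2.83 for Dbp and -1.22 to -1.002 for Tef. The highest adjusted p over all alternatives was 0.0465 for Per3 and at most 0.0241 for the other called members. Of 36 tested genes in the wider clock lists, 16 were called, near the 43.2% called among all tested genes, and 15 to 18 under the alternatives. Called pairs numbered 10, and 17 without male 4 and female 12 together, and the cause was not tested. With library totals, Arntl with Per3 (adjusted p = 0.0728), Arntl with Tef (0.0778) and Nr1d1 with Dbp (0.0501) missed the threshold. No paired analysis was possible because the sexes share no replicate numbers. Depth limits Arntl2 in females, where 6 counts carry its value, and Ciart, which was too low to test.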
